A study of Mus musculus with 6 samples.

Results

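Potassium channel genes were followed in RNA-seq of primary smooth muscle cells from the mouse oviduct. The members were all protein-coding rows of the deposited count table whose mouse symbol starts with Kcn, and 94 of the 54232 rows met that rule. A member was taken as measured when it had 10 or more counts in at least 3 of the 6 libraries, and 42 of the 94 did. The cells came from oviducts of mated females 8 to 12 weeks old on day 2 (D2) of pregnancy, 3 libraries from WT females and 3 from Pbrm1 cKO females. Per the study's methods, the Pbrm1 cKO carried floxed Pbrm1 alleles (Pbrm1 fl/fl) and a cre driven from the progesterone receptor gene (PR-IRES-cre), which acts in any cell that uses that gene and not in muscle alone. The labels call the controls WT, while a legend of the study names floxed mice for oviduct cells, and strain, animals per library and pooling were not given in the sources used here. Digested cells were passed through a filter and held in serum for some hours, so the cultures were not sorted. p-values therefore measure the spread between these libraries, which may be partly technical.

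Potassium channels let potassium leave the cell, which pulls the membrane potential down. In smooth muscle this closes voltage-gated calcium channels and relaxes the cell, so potassium channels set how readily the muscle of the oviduct wall contracts as it moves eggs and embryos. Each channel is built from pore-forming subunits, often with accessory subunits that change its gating or traffic. Pore-forming members were grouped from textbook knowledge as voltage-gated (Kv), calcium- or sodium-activated (KCa), inward rectifier (Kir) and tandem-pore (K2P, background or leak channels, whose subunits carry a pair of pore loops).

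The part that all pore-forming members have in common is the selectivity filter, the short stretch of the pore that lets potassium pass and holds sodium back. Its signature of a threonine or serine, a valine, isoleucine, threonine or leucine, a glycine, an aromatic residue or leucine and a second glycine was searched in the longest coding sequence of each member (GENCODE M21 transcripts, GRCm38). All 77 members grouped as pore-forming held it and 0 of the 17 accessory members did. All 14 K2P members held 2 copies and the other 63 pore-forming members held 1. The filter codons are shown for 3 members whose changes are described below, from different classes, with the 5 filter codons in capitals and 15 bases of coding sequence on each side in lower case, all on the minus strand: Kcnma1 at chr14:23528398-23528442, Kcnj8 at chr6:142566433-142566477, and both copies of Kcnk5. Each Kcnk5 stretch spans an intron, the first lying between chr14:20145100-20146522 and the second between chr14:20142456-20144677.
Kcnma1: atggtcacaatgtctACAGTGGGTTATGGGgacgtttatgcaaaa
Kcnj8: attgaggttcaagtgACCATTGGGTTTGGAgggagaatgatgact
Kcnk5, first copy: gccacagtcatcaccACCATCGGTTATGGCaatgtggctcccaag
Kcnk5, second copy: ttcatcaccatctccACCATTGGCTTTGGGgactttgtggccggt

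Libraries held 15390818 to 18947947 counts, at which 3 counts, taken as the floor, correspond to 0.159 to 0.193 CPM (counts scaled to a common library size by trimmed mean of M values factors). Pbrm1 was at 170, 183 and 172 CPM in WT and 43.4, 50.6 and 42.7 CPM in cKO replicates 1, 2 and 3, a log2 fold change of -1.94 (SE 0.064, edgeR adjusted p = 9.13e-11). Markers of smooth muscle were abundant in all libraries, with Acta2 between 1247 and 1631 CPM, and 7 of 10 were higher and 1 was lower in cKO. Markers of other cells were present too. All 12 leukocyte markers tested were higher in cKO, as were 9 of 11 fibroblast markers (1 lower), 4 of 5 pericyte markers (1 lower), 6 of 10 epithelial markers (0 lower), 2 of 8 endothelial markers (1 lower), 1 of 6 mesothelial markers (3 lower), 2 of 4 neuronal markers (1 lower), 0 of 3 glial markers (1 lower) and 2 of 3 interstitial pacemaker cell markers (0 lower). The summed leukocyte markers ranged from 781 to 832 CPM in WT and from 1230 to 1321 CPM in cKO. In bulk samples such as these, fewer cells of a type and less RNA per cell cannot be told apart, and the part of cell composition in the results below was not tested.

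The highest levels among pore-forming members were those of K2P leak channels. Per kilobase (kb) of exon, the scale on which levels of different genes were compared, Kcnk5 led in WT at 8.54 ± 0.141 CPM per kb (SD, n = 3), followed by Kcnk1 at 7.39 ± 0.676 and the accessory subunit Kcne4 at 6.36 ± 0.365. Kcnk5 encodes an alkaline-activated leak channel, Kcnk1 a weakly conducting leak channel, and Kcne4 a single-span subunit that modulates Kv channels. The next levels in WT lay well below the top 3 and close together: the Kv beta subunit Kcnab1 at 2.65 ± 0.185, Kcnk6 at 2.02 ± 0.0674, Kcnab3 at 1.85 ± 0.303, Kcnj8 at 1.59 ± 0.150, Kcnk13 at 1.42 ± 0.128, Kcnip3 at 1.20 ± 0.348 and Kcnab2 at 1.02 ± 0.0555 CPM per kb. Neighbours from Kcnk6 down to Kcnab2 differed by less than the sum of their SDs. In cKO the order at the top was Kcnk1 at 9.39 ± 0.964, Kcne4 at 8.39 ± 2.10, Kcnk5 at 5.45 ± 0.619 and Kcnj8 at 4.45 ± 0.850 CPM per kb. The first pair and the second pair in that order each differed by less than the sum of their SDs. Even the leading members were of moderate level for the library, since 36.0% of all tested genes had a higher mean level per kb than Kcnk1. Exon length is the union over all annotated transcripts, which is long for Kcnma1 and lowers its value on this scale.

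**Figure D1:**
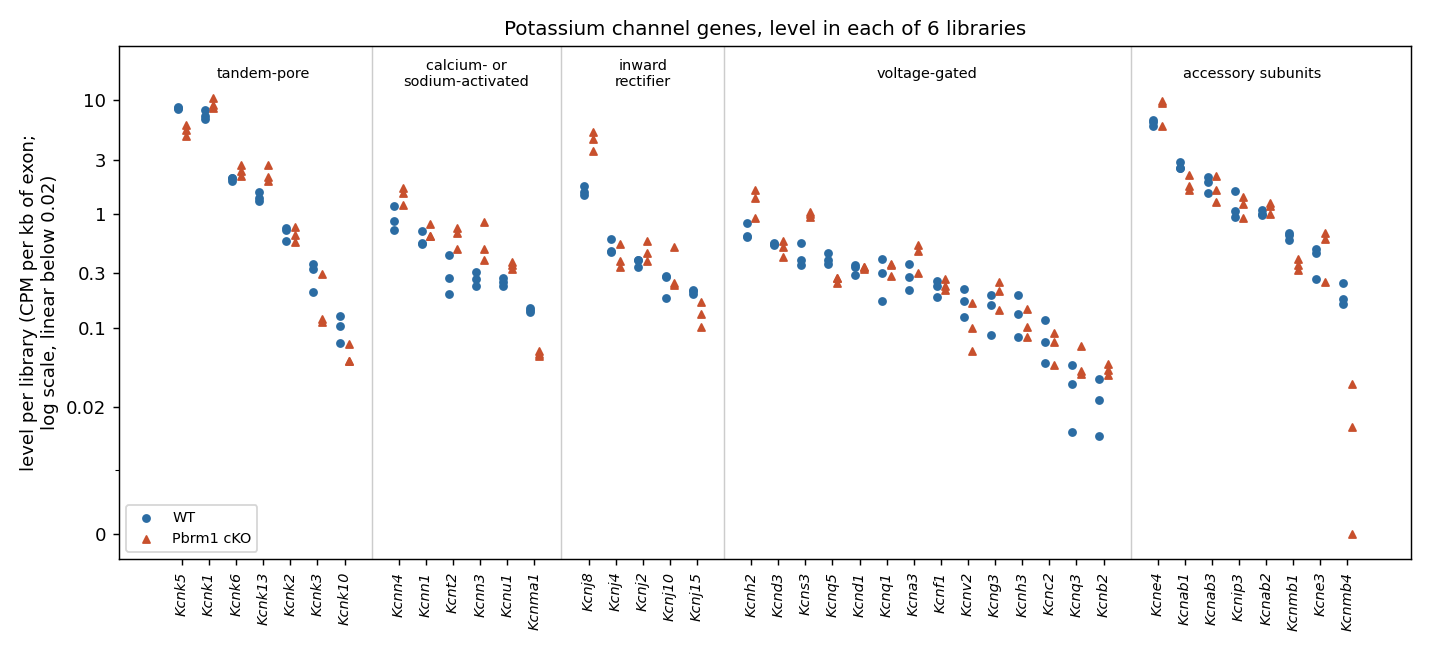
Level of 40 of the 42 measured potassium channel genes in each library, in CPM per kb of exon on a log scale that is linear below 0.02, with genes ordered within each class by their WT mean. Blue circles are the 3 WT libraries and orange triangles the 3 Pbrm1 cKO libraries; Kcnk5, Kcnk1 and Kcne4 stand highest, and Kcnmb4 falls to 0 in 1 cKO library.

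Summed over pore-forming members, K2P genes took 66.2% ± 0.809 of the level per kb in WT and 55.2% ± 1.69 in cKO (SD, n = 3). In CPM not divided by exon length, these shares were 53.9% ± 0.276 and 43.4% ± 1.25. The K2P sum per kb itself was nearly level, at 20.6 ± 0.770 CPM per kb in WT and 20.5 ± 0.749 in cKO. The other classes had higher sums in cKO, and their libraries did not overlap between the groups. The Kir sum went from 3.10 ± 0.221 to 6.07 ± 0.694 CPM per kb, the KCa sum from 2.52 ± 0.139 to 3.83 ± 0.340 and the Kv sum from 4.91 ± 0.0209 to 6.70 ± 0.580. Most of the Kir rise was that of Kcnj8 alone, from 1.59 ± 0.150 to 4.45 ± 0.850 CPM per kb. Of the other measured Kir members, Kcnj2 and Kcnj10 had higher means in cKO and Kcnj4 and Kcnj15 lower ones. The sum over all pore-forming members was 31.1 ± 0.982 CPM per kb in WT and 37.1 ± 1.19 in cKO. No test was made on these sums.

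**Figure D2:**
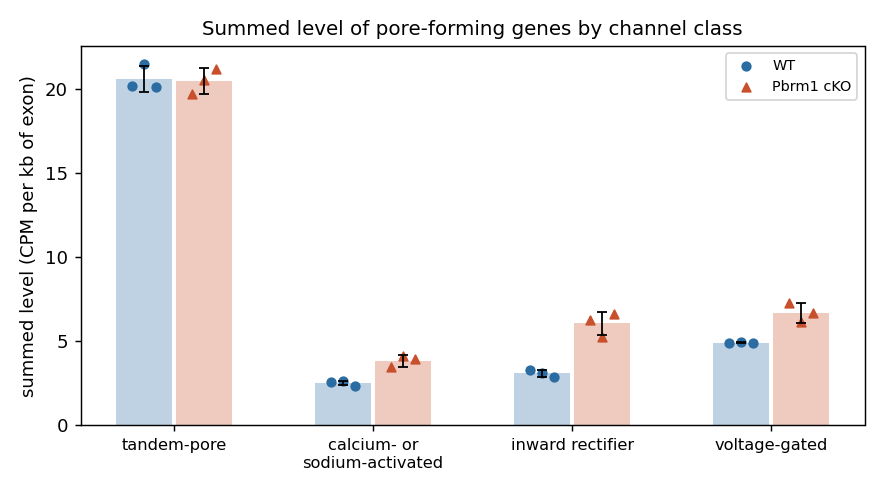
Summed level of pore-forming potassium channel genes by class, in CPM per kb of exon; bars are group means, error bars the SD over 3 libraries, and points single libraries (blue circles WT, orange triangles Pbrm1 cKO). The tandem-pore (K2P) sums are 20.6 in WT and 20.5 in cKO, and in the other 3 classes all cKO libraries lie above all WT libraries.

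Of the 42 measured members, 40 passed the filter for the edgeR fit, and 16 of these (40%) had an adjusted p under 0.05 for cKO against WT, against 43.7% of all 15376 genes tested. The share of members called was thus near that of all genes. By direction, 11 members (27.5%) were higher in cKO, against 21.9% of all genes, and 5 members (12.5%) were lower, against 21.8%. WT and cKO libraries had separate CPM ranges in 20 members (50%), against 53.5% of all genes, with cKO above WT for 13 members (26.6% of all genes) and below for 7 (26.9% of all genes). DESeq2 called 15 of the 40, against 36.0% of all genes. The median log2 fold change was 0.23 over the 40 members and 0.0016 over all genes. All 16 members called had 10 or more counts in every library, as did 31 of the 42 measured. By class, edgeR called 2 K2P members higher and 1 lower of 7 tested, 3 KCa members higher and 1 lower of 6, 1 Kir member higher and 0 lower of 5, 4 Kv members higher and 1 lower of 15, and 1 accessory member higher and 2 lower of 7.

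**Figure D3:**
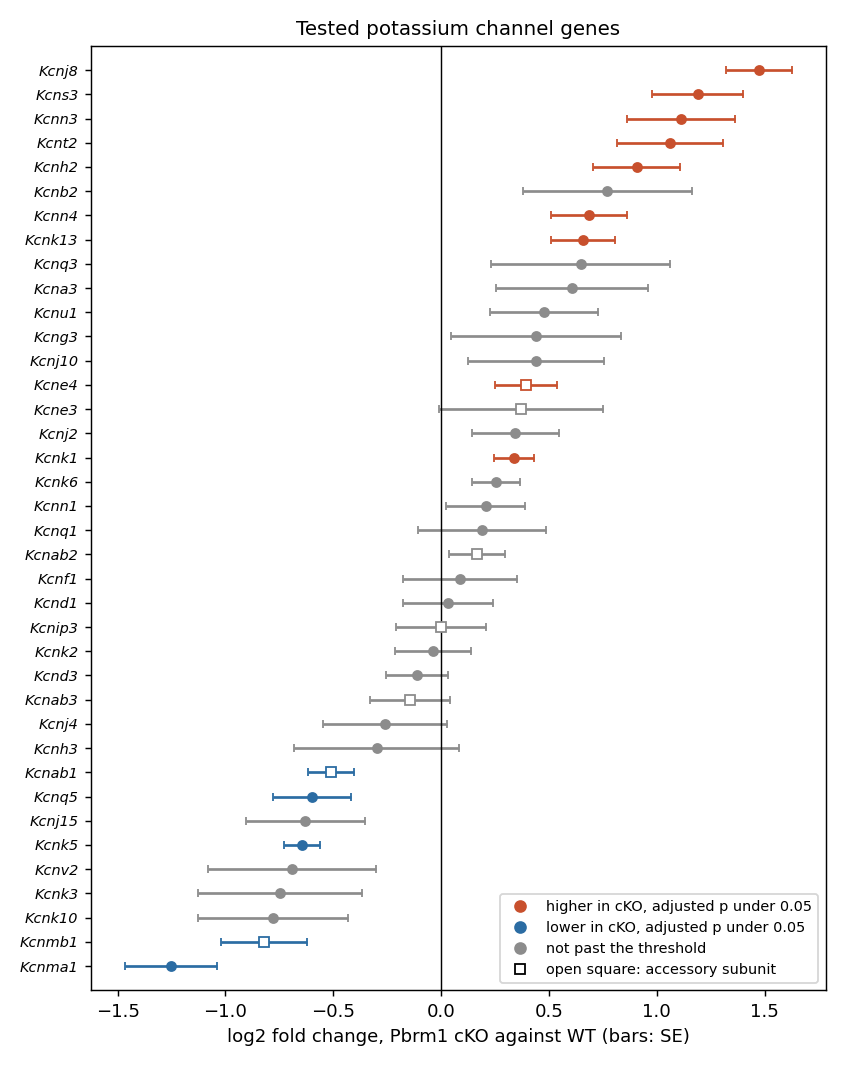
Log2 fold change of Pbrm1 cKO against WT for 38 of the 40 tested potassium channel genes, with bars for the SE; filled circles are pore-forming and open squares accessory subunits. The genes higher in cKO (orange) reach 1.47 for Kcnj8, and the 5 lower (blue) reach -1.25 for Kcnma1; grey genes did not pass the threshold.

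The deepest decreases were those of the BK channel, the large-conductance channel that opens on calcium and voltage together and acts as a brake on smooth muscle contraction. Its pore-forming gene Kcnma1 (ENSMUSG00000063142.15, chr14:23289431-24014491, minus strand) was at 2.42, 2.35 and 2.51 CPM in WT and at 1.07, 1.01 and 0.964 CPM in cKO. Replicates lay close together and the groups were far apart. The cKO mean was 41.7% of the WT mean (log2 fold change -1.25, SE 0.215, edgeR adjusted p = 0.000369). Kcnmb1 (ENSMUSG00000020155.2, chr11:33963013-33973641, plus strand), whose beta subunit makes the channel of smooth muscle sensitive to calcium, was at 2.71, 2.46 and 2.86 CPM in WT and 1.68, 1.48 and 1.35 CPM in cKO. All cKO libraries were again below all WT libraries (log2 fold change -0.82, SE 0.199, edgeR adjusted p = 0.00434). Per kb of exon, the level of Kcnmb1 was 4.47 ± 0.203 times that of Kcnma1 in WT and 6.01 ± 0.364 times in cKO (SD, n = 3), with no overlap between the groups. The size of this ratio rests on the exon lengths, 16976 bases for Kcnma1 and 4191 for Kcnmb1. In CPM the WT means were close, at 2.43 for Kcnma1 and 2.68 for Kcnmb1.

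Kcnmb4 (ENSMUSG00000054934.10, chr10:116417861-116473878, minus strand), a beta subunit of the same channel best known from neurons, had the largest proportional difference of the measured members but very few reads. It had 34 counts in the WT libraries together, at 0.590, 0.534 and 0.819 CPM. In cKO it had 3 counts, 1, 2 and 0 in replicates 1, 2 and 3. The cKO level was 8.91% of WT. It was the 1 measured member that was measured through its WT libraries alone, and the filter of the main fit left it out. No test or interval is given for Kcnmb4, because it is high enough to pass a filter on low counts only in WT. For the same reason, the size of its difference is no support for a decrease. Of the other BK partners, the beta subunit genes Kcnmb2 and Kcnmb3 had 6 and 2 counts in all libraries together. Of 8 neuronal markers, 4 were tested. Tubb3 (log2 fold change 0.71) and Syt1 (0.95) rose, Stmn2 fell (-1.41), Prph was not called, and Snap25 and Elavl3 were at or near 0 in both groups. Nefl was at 0.107 to 0.118 CPM in WT and 0.064 to 0.281 CPM in cKO, and was not tested. Elavl4 was low but above the floor, at 0.214 to 0.526 CPM in WT and 0.321 to 0.424 CPM in cKO, and was not tested. The summed list ranged from 11.2 to 14.1 CPM in WT and from 14.5 to 17.6 CPM in cKO. The part of nerve tissue in the Kcnmb4 value was not tested.

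The decreases of the BK genes went against the direction of most smooth muscle markers. Myh11, Des, Mylk, Myl9 and Lmod1, all contractile or cytoskeletal genes of muscle, rose in the same libraries, with Mylk at 178 to 188 CPM in WT and 359 to 477 CPM in cKO. Acta2 (log2 fold change 0.26) and Tagln (0.32) rose by less, and Actg2 (0.084) was not called. Cnn1 was at 61.0 to 63.7 CPM in WT and 55.4 to 63.8 CPM in cKO and was not called either. Smtn was the 1 marker of the list that fell (log2 fold change -0.29). The part of muscle cell content in the BK values was not tested. Kcnma1 lies on the same chromosome as Pbrm1, 7.005 Mb away, and Kcnmb1 on another chromosome, inside the gene Kcnip1 on the opposite strand.

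The promoters of both BK genes are shown because the genes fell together. The 250 bases before the RefSeq start (GRCm38.p6) are given on the strand of the gene, with GC boxes (GGGCGG, counted on both strands, overlaps allowed) in capitals. The Kcnma1 window at chr14:24004206-24004455 held 3 GC boxes, a pair of which overlap, had a GC content of 79.2% and held 31 CpG. In the count table's annotation Kcnma1 begins further upstream, at chr14:24014491, so this window lies inside the counted gene. The Kcnmb1 window at chr11:33962763-33963012 held 0 GC boxes, with a GC content of 50.8% and 1 CpG. Among 32851 RefSeq promoters of the same length, 32.7% held a GC box, the median GC content was 52.4% and the median was 6 CpG. RefSeq promoters were matched for 69 of the 94 members, with 94 promoters between them, of which 44.7% held a GC box. The pair of RefSeq windows thus differed in base composition, and the part of base composition in the decreases was not tested.
Kcnma1: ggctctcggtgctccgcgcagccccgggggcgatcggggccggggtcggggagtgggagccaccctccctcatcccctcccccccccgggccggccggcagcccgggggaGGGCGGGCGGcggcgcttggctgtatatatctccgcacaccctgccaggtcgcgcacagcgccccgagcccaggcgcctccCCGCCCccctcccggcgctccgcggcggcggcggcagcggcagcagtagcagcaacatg
Kcnmb1: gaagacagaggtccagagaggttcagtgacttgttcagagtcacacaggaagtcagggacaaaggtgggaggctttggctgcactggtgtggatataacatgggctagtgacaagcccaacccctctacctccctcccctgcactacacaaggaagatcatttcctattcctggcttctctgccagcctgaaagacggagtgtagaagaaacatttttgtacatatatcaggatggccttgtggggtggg

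The remaining KCa members behaved differently from Kcnma1. Kcnn3, a small-conductance channel that opens on calcium alone, was at 2.42, 3.20 and 2.81 CPM in WT and 5.11, 8.85 and 4.11 CPM in cKO (log2 fold change 1.11, SE 0.252, edgeR adjusted p = 0.00281). Its groups did not overlap, and cKO replicate 2 stood above the others. Without that library the log2 fold change was 0.72 (edgeR adjusted p = 0.00454). Kcnt2, a sodium-activated channel, was at 1.36, 2.99 and 1.87 CPM in WT and 4.72, 3.39 and 5.14 CPM in cKO (log2 fold change 1.06, edgeR adjusted p = 0.00340). Kcnn4, the intermediate-conductance channel known from leukocytes, endothelium and growing smooth muscle, was at 6.02, 3.68 and 4.44 CPM in WT and 6.18, 7.89 and 8.67 CPM in cKO. The highest WT library and the lowest cKO library of Kcnn4 nearly met (log2 fold change 0.69, edgeR adjusted p = 0.00645). Kcnn4 moved in the direction of the 12 leukocyte markers, whose median log2 fold change was 0.78. The part of leukocytes in the Kcnn4 value was not tested. Kcnn1 (log2 fold change 0.21) and the sperm channel gene Kcnu1 (0.48) did not pass the threshold, and Kcnn2 had 9 counts in all libraries together.

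The largest increase of any tested member was that of Kcnj8 (ENSMUSG00000030247.9, chr6:142564837-142571614, minus strand), the pore-forming subunit of the KATP channel of blood vessel muscle, which opens when ATP is low. It was at 4.48, 3.95 and 3.74 CPM in WT and at 11.6, 9.06 and 13.4 CPM in cKO. Every cKO library was more than double every WT library (log2 fold change 1.47, SE 0.153, edgeR adjusted p = 5.06e-06). A KATP channel needs a sulfonylurea receptor beside its pore, and Abcc9, which encodes that of vascular channels, rose alongside. Abcc9 was at 7.02, 5.18 and 6.26 CPM in WT and 16.5, 13.6 and 18.1 CPM in cKO (log2 fold change 1.38, SE 0.134, edgeR adjusted p = 2.58e-06). Per kb of exon, the ratio of Abcc9 to Kcnj8 was 0.461 ± 0.0565 in WT and 0.433 ± 0.0215 in cKO (SD, n = 3), and the libraries of the groups overlapped. In both genes cKO replicate 2 was the lowest of the cKO libraries. The alternative pair of pancreas and brain, Kcnj11 and Abcc8, was hardly present, with 3 counts in all libraries together for Kcnj11 and at most 0.424 CPM in any library for Abcc8.

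Kcnj8 and Abcc9 lie next to each other on chromosome 6, both on the minus strand, with 16.2 kb between them. The 250 bases before each RefSeq start are shown because the neighbours rose together. The Kcnj8 window at chr6:142571615-142571864 held 0 GC boxes, a GC content of 49.2% and 6 CpG. The Abcc9 window at chr6:142702275-142702524 held 1 GC box, shown in capitals as it reads on the opposite strand, with a GC content of 66.8% and 12 CpG. Neither window held TATAAA on either strand, which 12.4% of all 32851 promoters did.
Kcnj8: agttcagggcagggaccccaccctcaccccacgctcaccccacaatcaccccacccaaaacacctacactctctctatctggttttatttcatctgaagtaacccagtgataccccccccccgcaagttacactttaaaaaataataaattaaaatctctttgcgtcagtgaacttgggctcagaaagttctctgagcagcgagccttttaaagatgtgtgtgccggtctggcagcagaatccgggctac
Abcc9: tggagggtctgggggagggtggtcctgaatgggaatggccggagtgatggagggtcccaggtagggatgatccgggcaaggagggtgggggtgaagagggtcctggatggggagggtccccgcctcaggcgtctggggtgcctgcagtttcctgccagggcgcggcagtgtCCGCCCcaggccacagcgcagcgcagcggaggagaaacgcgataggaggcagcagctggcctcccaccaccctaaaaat

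Kcnj8 and Abcc9 are also known from pericytes, the contractile cells of small vessels. Among pericyte markers, Rgs5 (log2 fold change 0.54), Notch3 (0.59), Pdgfrb (0.42) and Ndufa4l2 (1.73) rose and Cspg4 (-0.70) fell. Higd1b was at 0 to 0.214 CPM in WT and 0.106 to 0.281 CPM in cKO, and was not tested. Vtn was low, at 0.214 to 0.292 CPM in WT and 0.225 to 0.530 CPM in cKO, and was not tested. The summed pericyte list ranged from 432 to 464 CPM in WT and from 510 to 614 CPM in cKO, of which Pdgfrb made up most. The part of pericytes in the Kcnj8 and Abcc9 values was not tested. Among other Kir members, Kcnj2, the classical strong inward rectifier, was at 2.12, 2.14 and 1.87 CPM in WT and 3.14, 2.49 and 2.12 CPM in cKO, and did not pass the threshold (log2 fold change 0.34, edgeR adjusted p = 0.190). Kcnj4, Kcnj10 and Kcnj15 were measured and did not pass either.

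**Figure D4:**
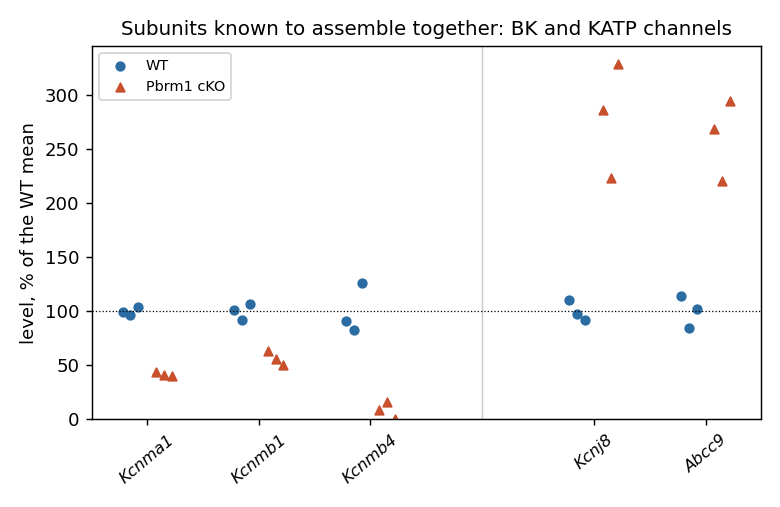
Level of subunits that are known to assemble together, as a percentage of each gene's WT mean, in the 3 WT libraries (blue circles) and the 3 Pbrm1 cKO libraries (orange triangles); from left to right the BK and KATP channels with their partners. All cKO libraries of Kcnma1 and Kcnmb1 lie below the WT libraries, and all those of both KATP genes above. Those of Kcnmb4 lie below too, but it was measured through its WT libraries alone, so this separation is no support for a decrease.

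Among voltage-gated members, Kcns3 encodes an electrically silent subunit that forms a pore only together with other Kv subunits. It rose from 1.24, 1.12 and 1.75 CPM in WT to 3.14, 2.97 and 3.28 CPM in cKO (log2 fold change 1.19, SE 0.210, edgeR adjusted p = 0.000460). The groups were well apart. Amigo1, an adhesion protein that travels with Kv2 channels, went down, from 5.43, 5.61 and 5.32 CPM in WT to 2.75, 3.34 and 3.66 CPM in cKO (log2 fold change -0.75, edgeR adjusted p = 0.00104). Vapa and Vapb, which tether Kv2 channels to the endoplasmic reticulum, had log2 fold changes of -0.0043 and 0.073 and did not pass the threshold. Kcnb2, a delayed rectifier gene, had its cKO libraries above its WT libraries at very low levels and did not pass the threshold (log2 fold change 0.77, edgeR adjusted p = 0.130). It passed the filter on low counts through its cKO libraries, where it is high, so the separation of its groups is no support for an increase.

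Channels of the Kv7 family open near the resting potential and hold smooth muscle relaxed. The Kv7 gene Kcnq5 was at 2.77, 3.47 and 3.04 CPM in WT and 1.91, 2.12 and 2.12 CPM in cKO (log2 fold change -0.60, SE 0.180, edgeR adjusted p = 0.0156). All cKO libraries were below all WT libraries. The Kcnq5 call was lost with DESeq2 (adjusted p = 0.0734), without WT replicate 2 (edgeR adjusted p = 0.0787) and without cKO replicate 1 (edgeR adjusted p = 0.0585). Kcnq1, which serves heart and epithelia, was not called (log2 fold change 0.19, edgeR adjusted p = 0.643). It overlaps the abundant antisense RNA Kcnq1ot1, which stranded counting kept apart, and Kcnq5 spans a counted pseudogene, Gm7658, on its own strand.

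Kcne4, which encodes a modulator of Kv7 and other Kv channels, was at 17.6, 15.8 and 17.2 CPM in WT and 24.9, 15.9 and 26.1 CPM in cKO. Here cKO replicate 2 sat among the WT libraries (log2 fold change 0.39, SE 0.145, edgeR adjusted p = 0.0408). The call was lost with limma-voom (adjusted p = 0.0804) and in all fits that left out 1 library other than cKO replicate 2, with adjusted p-values up to 0.171, and without cKO replicate 2 the log2 fold change was 0.60 (edgeR adjusted p = 1.37e-05). Nedd4l, a ubiquitin ligase that removes Kv7 channels from the membrane, rose (log2 fold change 0.36), and the scaffolds Akap5 (-0.88) and Akap9 (-0.22), which anchor kinases at Kv7 channels, fell.

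Kcnh2, the ERG channel that ends the action potential in heart and also acts in smooth muscle, was at 4.01, 3.10 and 3.04 CPM in WT and 7.86, 4.50 and 6.75 CPM in cKO (log2 fold change 0.91, SE 0.201, edgeR adjusted p = 0.00244). All cKO libraries were above all WT libraries. Kcnd3, a pore of the rapidly inactivating A-type current, was at 5.13 to 5.34 CPM in WT and 4.04 to 5.51 CPM in cKO and was not called (log2 fold change -0.11, SE 0.143). Its accessory subunit gene Dpp6 fell (log2 fold change -0.78, edgeR adjusted p = 0.0206), a call lost in 5 of 16 alternatives, and Kcnip1 had 10 counts in all libraries together. Kcna5, a Kv1 pore reported from vascular muscle, had 2 counts in all libraries together. Kcnab1, a beta subunit of Kv1 channels, was nevertheless the second highest accessory gene. It fell from 21.7, 24.6 and 21.98 CPM in WT to 18.9, 13.9 and 15.03 CPM in cKO (log2 fold change -0.51, SE 0.106, edgeR adjusted p = 0.00148). Its relatives Kcnab2 (log2 fold change 0.17) and Kcnab3 (-0.14) were not called, nor were Kcne3 (0.37), a partner of epithelial Kv channels, and Kcnip3 (-0.0021), a calcium-binding Kv4 partner. The only Kv1 pore gene measured was Kcna3, at 0.409 to 0.694 CPM in WT and 0.578 to 1.01 CPM in cKO.

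**Figure D5:**
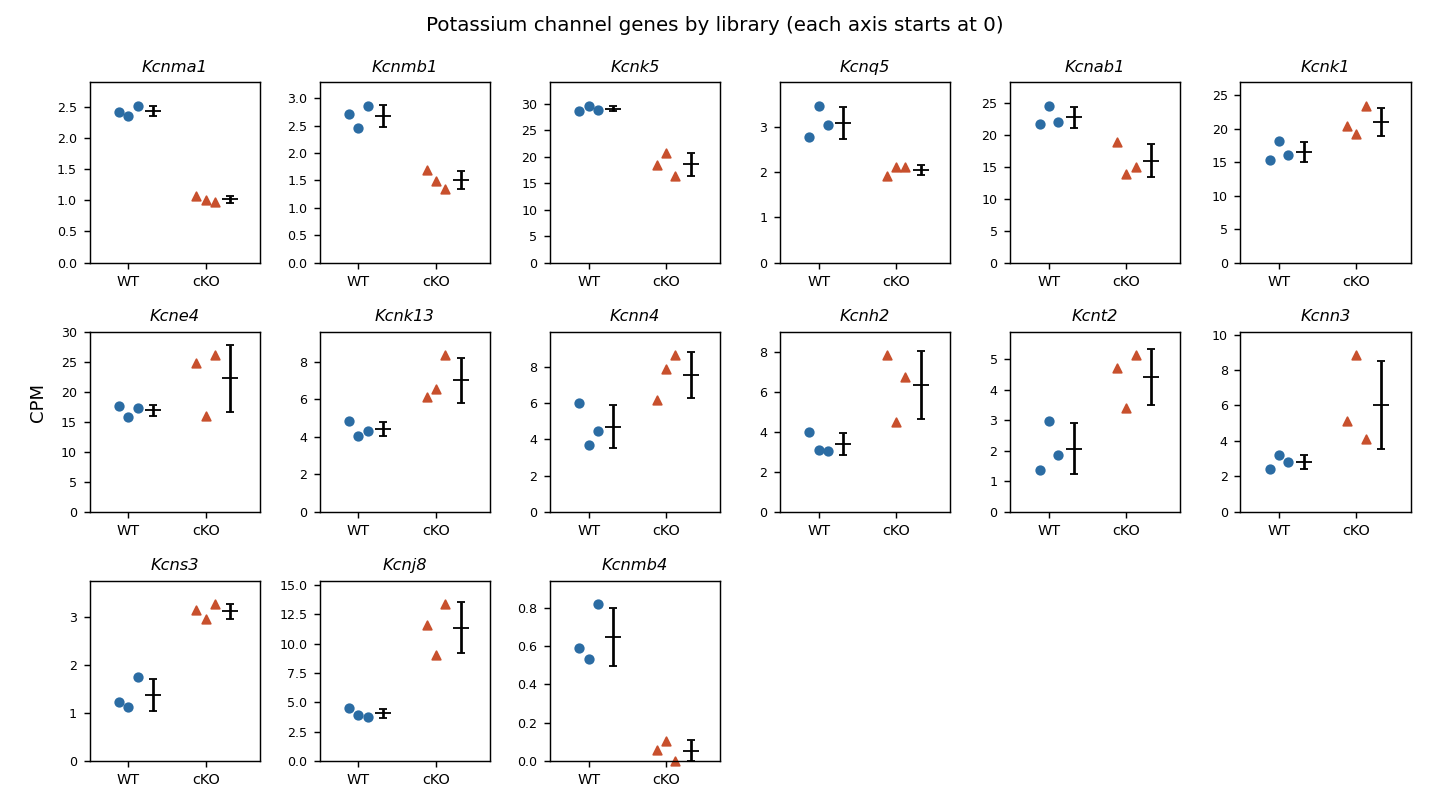
CPM in each library of 14 of the 16 potassium channel genes past the threshold, in the order of their log2 fold change, and of Kcnmb4; each axis starts at 0, points are the 3 libraries of a group and the bar beside them is the mean and SD. The first 5 panels, from Kcnma1 to Kcnab1, are lower in cKO, and Kcne4 is the 1 panel whose groups overlap.

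The abundant leak channels split. Kcnk5 (ENSMUSG00000023243.9, chr14:20140057-20181809, minus strand) was at 28.7, 29.6 and 28.9 CPM in WT and 18.5, 20.7 and 16.4 CPM in cKO. The WT libraries lay within 1 CPM of each other and all cKO libraries lay below them (log2 fold change -0.64, SE 0.082, edgeR adjusted p = 3.03e-05). Kcnk5 lies 10.8 Mb from Pbrm1 on chromosome 14. Kcnk1 was at 15.3, 18.2 and 16.1 CPM in WT and 20.3, 19.2 and 23.4 CPM in cKO, a small increase (log2 fold change 0.34, SE 0.095, edgeR adjusted p = 0.0106). Leaving out WT replicate 1 gave an adjusted p of 0.0531. Kcnk13, a leak channel known from microglia and macrophages, was at 4.84, 4.06 and 4.33 CPM in WT and 6.12, 6.52 and 8.35 CPM in cKO (log2 fold change 0.66, edgeR adjusted p = 0.00264). Like Kcnn4, it moved in the direction of the leukocyte markers, and their part in the value was not tested. Kcnk6 was at 8.08 to 8.60 CPM in WT and 8.98 to 11.2 CPM in cKO and did not pass the threshold (log2 fold change 0.25, edgeR adjusted p = 0.0773).

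Leak channels best known from other smooth muscle were low. The stretch-activated channel Kcnk2 was at 2.86 to 3.72 CPM in WT and 2.83 to 3.81 CPM in cKO (log2 fold change -0.038, SE 0.175, edgeR adjusted p = 0.884). The acid-inhibited channel Kcnk3, which sets the resting potential of pulmonary artery muscle, was at 1.30, 1.44 and 0.819 CPM in WT and 1.18, 0.477 and 0.450 CPM in cKO. The groups of Kcnk3 overlapped through cKO replicate 1, and it did not pass the threshold (log2 fold change -0.75, SE 0.380, edgeR adjusted p = 0.130). The fit that left this library out gave -1.34. There Kcnk3 got past the filter on low counts by its WT libraries alone, so that value is no support for a decrease. Kcnk10 was lower in all cKO libraries but did not pass the threshold, and only 1 of its cKO libraries reached 10 counts.

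The 52 members that were not measured had at most 56 counts in all 6 libraries together, and 13 of them had 0. A count of 0 in a library allows up to 3 counts. Not measured were 24 of 40 Kv members, 10 of 15 Kir members, 9 of 17 accessory members, 7 of 14 K2P members and 2 of 8 KCa members. Among the 24 tested members that were not called, log2 fold changes ranged from -0.78 to 0.77, and 3 of them had an unadjusted edgeR p under 0.05.

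Partners of potassium channels whose symbols do not start with Kcn were taken as a list of 21 genes, of which 15 were tested. Of these, 2 were higher and 7 lower in cKO at an adjusted p under 0.05, where 21.9% of all tested genes were higher and 21.8% lower. The 7 include Hcn2, which rests on few counts. The median of the 15 log2 fold changes was -0.22, against 0.0016 over all genes. Besides Abcc9, Nedd4l, Amigo1, Dpp6, Akap5 and Akap9, the list included the pacemaker cation channels Hcn2 and Hcn4, relatives of potassium channels that depolarize the membrane. Hcn4 was at 2.77, 3.52 and 3.74 CPM in WT and 1.24, 1.96 and 1.80 CPM in cKO (log2 fold change -1.01, edgeR adjusted p = 0.00177). Hcn2 was at 0.641 to 0.826 CPM in WT and 0.168 to 0.265 CPM in cKO. It passed the filter on low counts through its WT libraries, where it is high, so its call is no support for a decrease. The groups of Hcn4 did not overlap. Cav1, the coat protein of caveolae in which BK and KATP channels are found, fell from 230, 231 and 245 CPM to 164, 161 and 174 CPM (log2 fold change -0.50, SE 0.048, edgeR adjusted p = 2.26e-06). The BK gamma subunit genes Lrrc26, Lrrc38 and Lrrc52 were at or near 0, and Lrrc55 was not called.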

How the data were processed

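For 6 libraries, the authors deposited a table of raw read counts (whole numbers per gene, not normalized). Its header names featureCounts 1.6.4, reverse-stranded mode and GENCODE M18 exons, and the submitters' processing notes name cutadapt, HISAT2 and GRCm38.p5. GENCODE M21 identifiers gave symbols to 54165 of 54232 rows (99.9%). Coordinates of genes are those of the table.

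All genes were tested together by the two-sided quasi-likelihood F-test of edgeR 4.0.16 (R 4.3.3) after TMM normalization and filterByExpr, with Benjamini-Hochberg adjustment over 15376 genes and a threshold of 0.05. CPM used the TMM factors. The SE was the absolute log2 fold change over the square root of F. DESeq2 1.42.0 and limma 3.58.1 were alternatives, and the fits were tested on simulated data. Members, lists and tests were chosen with earlier results of these data known. The text names called members with a mean of at least 1 CPM, the 10 highest per kb in WT, members known from smooth muscle, and called partner genes. Other members and markers were named after their values were seen. Reads carried no molecular identifiers, so the floor of 3 counts covers counting error only. Libraries of a group differed by more than sampling noise, which cannot show whether they were separate animals or separate preparations from 1 pool. Some members are counted here but their own values are not reported here.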

Additional observations from a re-analysis of the deposited data

How the results depend on the processing

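Across 16 alternative fits (DESeq2, limma-voom, 3 scalings, 4 filters on low counts, the replicate block and leaving out each library), 15 to 19 members were called. These were 22.2% to 51.6% of the members tested, against 23.6% to 45.5% of all genes. Of the 16 members called in the main fit, 13 kept their call in every one and none changed direction. Kcne4, Kcnq5 and Kcnk1 lost their call in some, as given above. At an adjusted p under 0.01, 13 members (32.5%) were called, against 30.3% of all genes. Called and beyond 1.5-fold were 13 members (32.5%) and 2159 of all genes (14%), so there the shares were not near each other. The median SE was 0.209 over the tested members and 0.088 over all genes, and the part of this in the difference was not tested. Leaving out 1 library gave 15 to 19 members (34.9% to 42.2%) and 5532 to 7054 of all genes (35.4% to 45%) called. Libraries with the same replicate number did not deviate together (correlations -0.0243, 0.0353 and 0.0928 for replicates 1, 2 and 3). With the replicate block 16 members (40%) and 6908 genes (44.9%) were called. No scaling gave a median over all genes above 0.0174 (log2).

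Some members that were not called changed sign. Leaving out 1 library, Kcnab3 ranged from -0.36 to 0.038, Kcnd3 from -0.22 to 0.0058, Kcnq1 from -0.068 to 0.47, Kcnk2 from -0.16 to 0.052 and Kcnip3 from -0.15 to 0.25, and Kcnip3 was 0.023 with limma-voom and 0.013 with library size only. Without cKO replicate 1, Kcnk6 passed the threshold (log2 fold change 0.33, edgeR adjusted p = 0.0451). Kcnk3 did so too, but in that fit it passed the filter on low counts only through its WT libraries, so this is no support for a decrease. In CPM not divided by exon length, an alternative chosen after seeing the data, K2P members took 53.9% of the pore-forming sum in WT and 43.4% in cKO. Of the 10 highest members per kb, 8 were also among the 10 highest by CPM. Members at about 1 CPM rest on few counts, which limits what can be called among them.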
